A study of Mus musculus with 30 samples.

Results

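A set of 10 genes of the immediate early and stress response was followed cell by cell in single primordial germ cells (PGCs), the embryonic precursors of eggs and sperm. They were the immediate early genes *Fos*, *Fosb*, *Jun*, *Junb*, *Egr1* and *Atf3*, the 3 *Gadd45* genes and *Ddit3*. The genes were chosen from earlier results on their on/off states in these same cells, so their values are given as a description. Every probe set that the platform annotation assigns to them was taken, which gave 14 probe sets for 10 of 18194 measured genes, among 45101 probe sets in all. The 30 arrays hold 1 cell each, taken at E7.25-E7.5 from C57BL/6 embryos of matings between *Prdm14*+/- parents. Of these, 4 were labelled *Prdm14* KO (homozygous for a mutant allele of the germ cell regulator *Prdm14* in the whole embryo), 13 were labelled *Prdm14*+/- and 13 WT. The base of the allantois bud was cut out and dissociated with trypsin, single cells were picked with a capillary, and cells with *Prdm1* cDNA by PCR were kept as PGCs.

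Array codes placed the cells in 3 array runs, and 5 sets of 1 run and 1 label resulted. Run 3 held the 4 cells labelled *Prdm14* KO and 6 labelled *Prdm14*+/-, run 2 held 7 labelled *Prdm14*+/- and 3 labelled WT, and run 1 held 10 labelled WT. Cells labelled KO and WT shared no run, so label and run cannot be told apart between them. The labels name no embryo, each genotype was therefore counted as 1 sample, no test was made, and SDs describe the spread between cells. The *Prdm14* transcript itself ran against the labels, with a mean of 11.40 ± 0.98 in cells labelled KO, 9.70 ± 1.93 in cells labelled *Prdm14*+/- and 7.40 ± 1.85 in cells labelled WT (log2 values, SD, n = 4, 13 and 13). The position of that probe set relative to the mutation was not stated. Every direction given below is thus a direction between cells so labelled. *Prdm1* was on in all 30 cells. Of 8 blood and endothelial markers, *Hba-x*, *Hbb-bh1* and *Gata1* were on in no cell and the other 5 in 1 to 10 cells, led by *Kdr* in 10, and the mean of the list ran from 6.13 to 6.46, 6.00 to 6.41 and 6.00 to 6.28 in cells labelled KO, *Prdm14*+/- and WT. Of 7 endoderm markers, *Afp* and *Ttr* were on in no cell, *Sox17* in 21 and the other 4 in 1 to 3 cells, and the mean ran from 6.72 to 7.25, 6.00 to 6.84 and 6.00 to 7.29. Of 5 extraembryonic ectoderm markers, *Elf5* was on in no cell, *Eomes* in 2, *Esrrb* and *Tfap2a* in 11 each and *Gata3* in 17. Their mean ran from 6.76 to 7.32, 6.00 to 8.27 and 6.00 to 7.79 with the labels in the same order.

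Immediate early genes are switched on within minutes of a growth factor, a mechanical stimulus or cell damage, without new protein synthesis. FOS and FOSB pair with JUN or JUNB to form the transcription factor AP-1, EGR1 is a zinc finger factor induced by MAP kinase signalling, and ATF3 is a stress-induced factor of the ATF/CREB family. GADD45 proteins are small inducible proteins that act in cell cycle arrest, DNA repair and p38 and JNK signalling, and DDIT3 (CHOP) is a factor of the integrated stress response. Enzymatic dissociation is known to induce several of these genes in other tissues, and FGF signalling induces *Fos* and *Egr1* in many cell types.

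The 250 bases upstream of the annotated start are shown for 4 of these genes. *Fos* and *Gadd45a* were the pair most often on in the same cells, *Gadd45b* is a paralog that, like *Gadd45g*, was off in all 4 cells labelled KO, and *Junb* is an AP-1 gene that was on in 12 cells. RefSeq promoters of GRCm38.p6 were used, at chr12:85473640-85473889 (+) for *Fos*, chr8:84978749-84978998 (-) for *Junb*, chr6:67037408-67037657 (-) for *Gadd45a* and chr10:80929841-80930090 (+) for *Gadd45b*. Capitals mark every match on either strand to TGACG (the core of a CRE, the site of CREB and ATF factors), CCAAT (the NF-Y box) and TATAAA (the TATA box), as printed on the strand of the gene.
Fos: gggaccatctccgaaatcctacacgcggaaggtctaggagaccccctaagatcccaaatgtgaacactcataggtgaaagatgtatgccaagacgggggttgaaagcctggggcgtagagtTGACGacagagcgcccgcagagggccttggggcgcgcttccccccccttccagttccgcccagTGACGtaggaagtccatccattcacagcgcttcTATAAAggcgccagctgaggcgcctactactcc
Junb: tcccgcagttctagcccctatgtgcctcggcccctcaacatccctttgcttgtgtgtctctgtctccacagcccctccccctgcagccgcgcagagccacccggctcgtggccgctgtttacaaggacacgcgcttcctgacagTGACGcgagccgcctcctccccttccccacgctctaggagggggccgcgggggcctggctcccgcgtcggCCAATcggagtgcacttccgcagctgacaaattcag
Gadd45a: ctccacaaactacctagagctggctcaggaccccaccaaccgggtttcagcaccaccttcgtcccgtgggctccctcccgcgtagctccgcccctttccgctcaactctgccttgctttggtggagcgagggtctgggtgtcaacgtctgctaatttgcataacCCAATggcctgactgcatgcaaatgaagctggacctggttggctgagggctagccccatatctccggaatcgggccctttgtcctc
Gadd45b: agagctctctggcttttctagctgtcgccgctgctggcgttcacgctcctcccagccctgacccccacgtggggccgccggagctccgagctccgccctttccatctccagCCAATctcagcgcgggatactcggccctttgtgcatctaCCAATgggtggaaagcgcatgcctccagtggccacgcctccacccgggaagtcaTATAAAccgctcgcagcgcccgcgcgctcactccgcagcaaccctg
The promoters of all these genes but *Egr1* were searched. TGACG was present in 4 of the 9 promoters searched, against 17.8% of 32851 promoters of the same length. Its matches began 129 and 66 bases before the start in *Fos*, 60 in *Fosb*, 106 in *Junb* and 7 in *Atf3*. CCAAT was present in 6 of 9 (33.8% of all promoters), and TATAAA in *Fos*, *Gadd45b* and *Gadd45g* (12.4% of all promoters). The AP-1 motif TGANTCA was matched in *Ddit3* alone of the 9 (6.75% of all promoters), and the full CRE TGACGTCA in 0 of 9 (1.55%). A match is a run of letters in this window and does not show a site in use.

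Levels are log2 MBEI, a model-based index of the signal of a probe set, and were set to 6 where they were lower. A gene was called on in a cell where its value was above 6. In genes with several probe sets, that with the highest mean stood for the gene. These genes were mostly off. *Gadd45a* was on in 17 cells, *Junb* in 12, *Fos* in 11, *Gadd45b* in 9, *Jun* in 8, *Egr1* and *Ddit3* in 7 each, *Gadd45g* in 5, *Atf3* in 4 and *Fosb* in 2 of 30. Another 2 probe sets, 1 of *Gadd45b* and 1 of *Ddit3*, were on in no cell. Values of on cells ranged from 6.23 and 6.60 in *Fosb* and 6.35 to 8.21 in *Gadd45g* to more than 12 in *Fos*. *Fos* was listed at 0 in 19 cells and lay between 9.06 and 12.59 in the other 11, with nothing in between, and *Junb* lay between 7.72 and 9.96 in the 12 cells in which it was above 0.

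**Figure D1:**
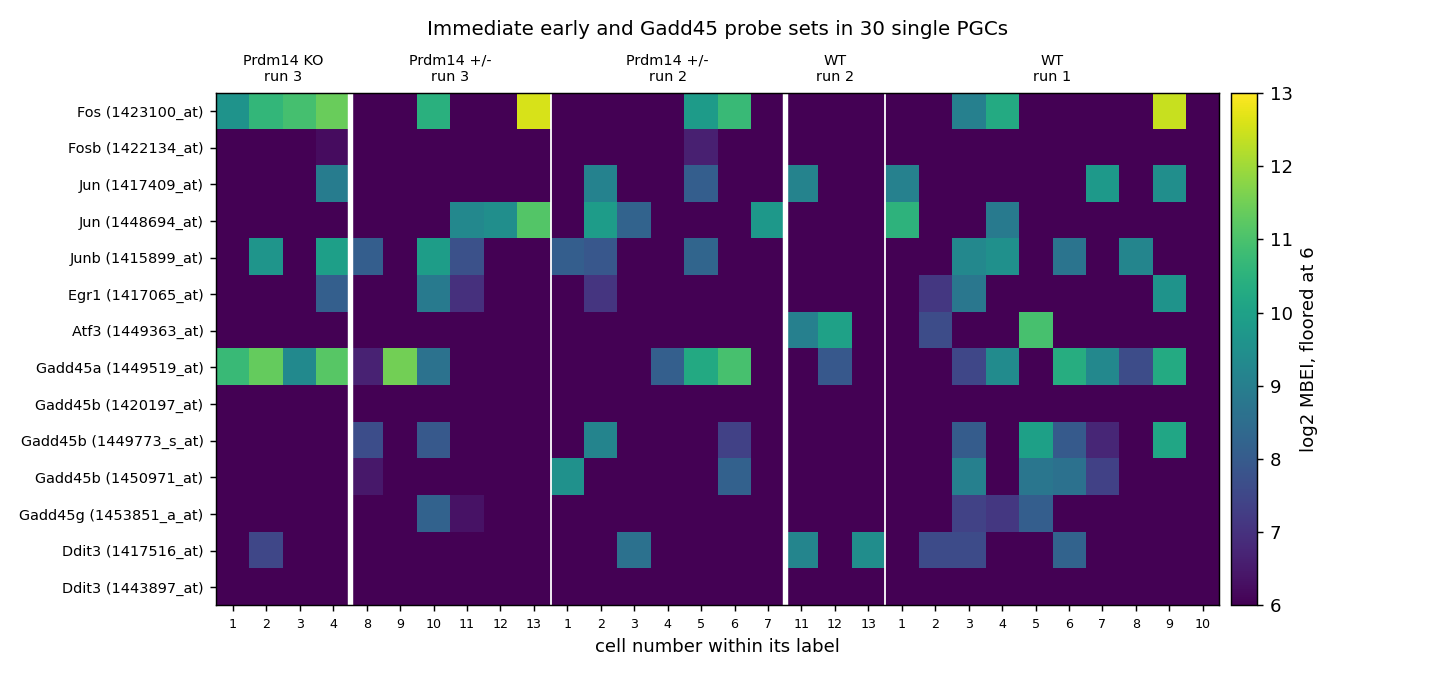
Level of each of the 14 probe sets (rows; log2 MBEI floored at 6, colour) in each of the 30 cells (columns, by genotype label and array run). *Fos* and *Gadd45a* were on in all 4 cells labelled *Prdm14* KO, while every other gene was off in at least 2 of them.

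*Fos* read 9.59, 10.64, 10.93 and 11.40 in the 4 cells labelled *Prdm14* KO. In cells labelled *Prdm14*+/- it ran from 6 to 12.59 with a median of 6, and in cells labelled WT from 6 to 12.42 with a median of 6. All 4 cells labelled KO were thus on, but their levels lay inside the range of the on cells of the other labels. The share of on cells was 100% of cells labelled KO (95% Clopper-Pearson interval 39.8% to 100%), 30.8% of those labelled *Prdm14*+/- (9.09% to 61.4%) and 23.1% of those labelled WT (5.04% to 53.8%). These intervals cover counting error only and take cells as independent, which cells of 1 embryo are not. The means were 10.64 ± 0.77, 7.51 ± 2.43 and 7.06 ± 2.13 (SD, n = 4, 13 and 13), and the mean of cells labelled KO was higher by 3.59 than that of cells labelled WT, against a pooled SD between cells of 1.93. Within run 3, where both labels were present, *Fos* was on in 4 of 4 cells labelled KO and 2 of 6 labelled *Prdm14*+/-, and the difference was 2.80 (pooled SD 2.36). *Fosb*, the closest relative of *Fos* among these genes, scarcely passed 6. It was above 0 in all 4 cells labelled KO, at 0.57, 3.80, 5.16 and 6.23, in 1 of 13 labelled *Prdm14*+/- (6.60) and in 2 of 13 labelled WT.

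*Junb* was on in 2 of 4 cells labelled KO (9.64 and 9.96), 6 of 13 labelled *Prdm14*+/- and 4 of 13 labelled WT. Its means of 7.90 ± 2.20, 7.08 ± 1.31 and 6.97 ± 1.53 differed by less than the spread between cells. *Egr1* was on in 1 of 4, 3 of 13 and 3 of 13 cells in the same order of labels, and its means of 6.53 ± 1.05, 6.38 ± 0.84 and 6.58 ± 1.21 were within 1 SD of each other. The 2 measured probe sets of *Jun* did not describe the same cells. The one with the higher mean was on in 8 cells (0 of 4 labelled KO, 6 of 13 labelled *Prdm14*+/-, 2 of 13 labelled WT), the other in 7 (1, 2 and 4), and only 2 cells were on by both, with a correlation of 0.08 over the 30 cells. The first also read above 0 but below 6 in all 4 cells labelled KO, at 3.72, 3.54, 3.23 and 4.13. A statement on *Jun* by label therefore depends on the probe set. *Atf3* showed another pattern. It was on in 0 of 4 cells labelled KO, 0 of 13 labelled *Prdm14*+/- and 4 of 13 labelled WT, at 7.63, 10.97, 9.05 and 10.01, of which the first 2 were of run 1 and the last 2 of run 2. By the same kind of interval, a count of 0 of 4 allows a share of up to 60.2%, and one of 0 of 13 up to 24.7%. These bounds too take cells as independent, which cells of 1 embryo are not.

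The 3 *Gadd45* paralogs differed in which cells had them on. *Gadd45a* read 10.75, 11.36, 9.33 and 11.17 in the 4 cells labelled KO. It ran from 6 to 11.52 with a median of 6 in cells labelled *Prdm14*+/- and from 6 to 10.36 with a median of 7.49 in cells labelled WT. It was thus on in 4 of 4, 6 of 13 and 7 of 13 cells, again with overlapping levels. The means were 10.65 ± 0.92, 7.55 ± 2.12 and 7.56 ± 1.74, and the difference between cells labelled KO and WT was 3.09 (pooled SD 1.61). Within run 3 it was on in 4 of 4 cells labelled KO and 3 of 6 labelled *Prdm14*+/-, with a difference of 3.18 (pooled SD 1.85). *Gadd45b* was on in 0 of 4 cells labelled KO, 4 of 13 labelled *Prdm14*+/- and 5 of 13 labelled WT, and *Gadd45g* in 0, 2 and 3 of them. Each cell labelled KO thus had exactly 1 *Gadd45* gene on. Only 2 of the 3 *Gadd45b* probe sets were on in any cell, in 9 and 7 cells of which 6 were shared, and both were off in all 4 cells labelled KO. The third was above 0 in 3 cells, with a highest value of 5.49. *Ddit3* was on in 1 of 4 cells labelled KO (7.49), 1 of 13 labelled *Prdm14*+/- (8.60) and 5 of 13 labelled WT (7.59 to 9.44).

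**Figure D2:**
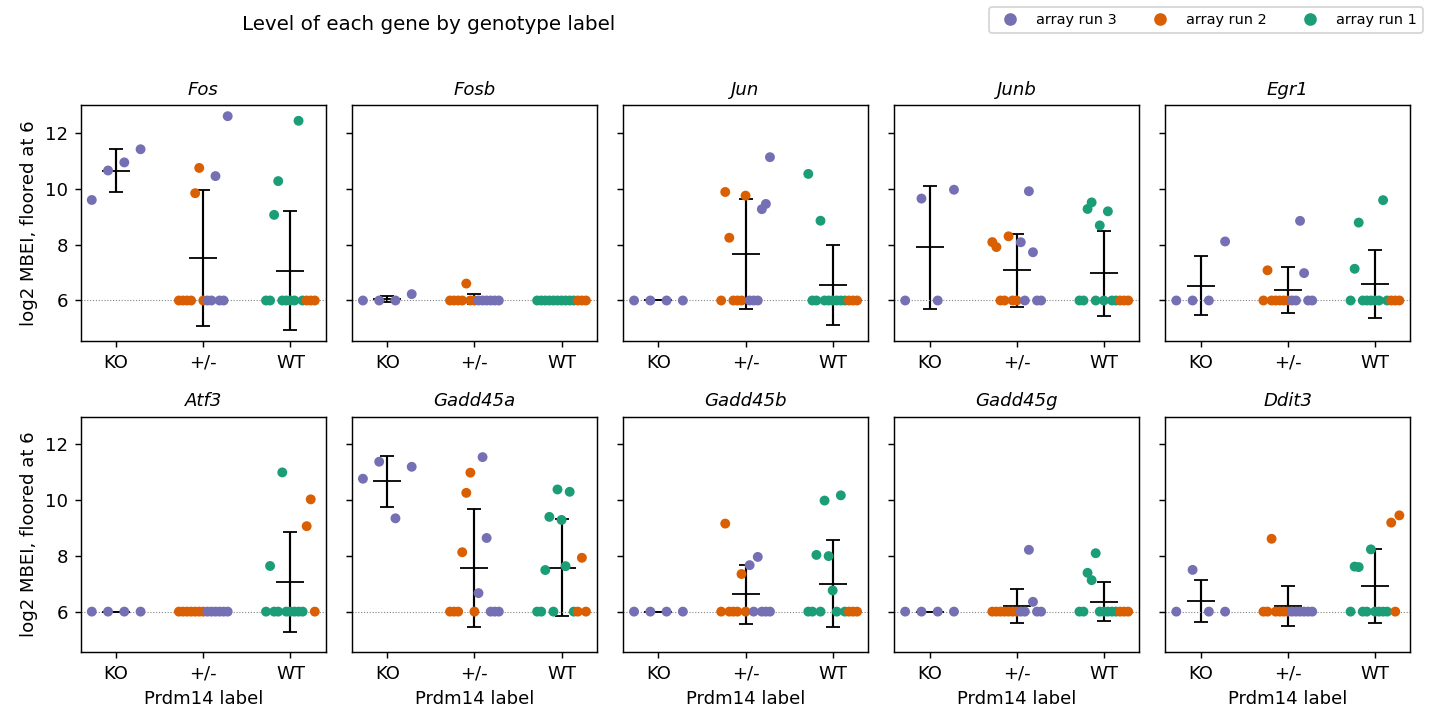
Level of the 10 genes (log2 MBEI floored at 6) in cells labelled *Prdm14* KO, *Prdm14*+/- and WT, with 1 point per cell coloured by array run and the mean ± SD in black. The points of *Fos* and *Gadd45a* in cells labelled KO all lie above 9, and points of the other labels lie both at 6 and in the same range.

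Differences of at least 1 between group means were counted and set beside the same count over all 18194 genes. Between cells labelled KO and WT, 2 of the 10 genes (*Fos*, *Gadd45a*) were higher by at least 1, against 8.14% of all genes, and 1 (*Atf3*, -1.05) was lower, against 4.41%. Between cells labelled KO and *Prdm14*+/-, *Fos* (3.14) and *Gadd45a* (3.10) were higher (background 7.02%) and *Jun* (-1.67) lower (3.84%). Between cells labelled *Prdm14*+/- and WT, *Jun* was higher by 1.10 (2.46%) and *Atf3* lower (-1.05, against 2%). The other *Jun* probe set went the opposite way, at 0.34 (KO minus *Prdm14*+/-) and -0.63 (*Prdm14*+/- minus WT). The median difference over the 10 genes was -0.20, 0.08 and -0.09 in the 3 comparisons, and the median over all genes was 0 in each. The genes did not move together.

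The same differences were then taken inside a run and inside a label. Inside run 3, *Fos* and *Gadd45a* were higher in cells labelled KO than in those labelled *Prdm14*+/- (8.76% of all genes) and *Jun* was lower (-1.97, pooled SD 1.78; 5.88%). Inside run 2, *Fos* (1.22) and *Jun* (1.41) were higher in cells labelled *Prdm14*+/- than in the 3 labelled WT (6.17%). *Atf3* (-2.35) and *Ddit3* (-1.83) were lower (8.51%). The other *Jun* probe set went the opposite way in both runs, at 0.74 in run 3 and -0.30 in run 2. The genes also differed between runs of 1 label. Among cells labelled WT, *Atf3* (1.69) and *Ddit3* (1.66) were higher in run 2 than in run 1 (7.5% of all genes). *Fos* (-1.37), *Junb* (-1.26), *Gadd45a* (-1.20) and *Gadd45b* (-1.29) were lower in run 2 (4.64%). Among cells labelled *Prdm14*+/-, 0 of 10 genes differed by 1 or more between run 3 and run 2 in either direction (5.31% and 4.53% of all genes). None of the 3 cells labelled WT of run 2 had *Fos*, *Junb*, *Egr1*, *Gadd45b* or *Gadd45g* on. With the array run as a block, which makes the comparison of KO and WT rest on these 3 cells, the differences were 4.03 for *Fos*, 4.16 for *Gadd45a*, 1.51 for *Junb*, -2.35 for *Atf3* and -1.46 for *Ddit3*.

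**Figure D3:**
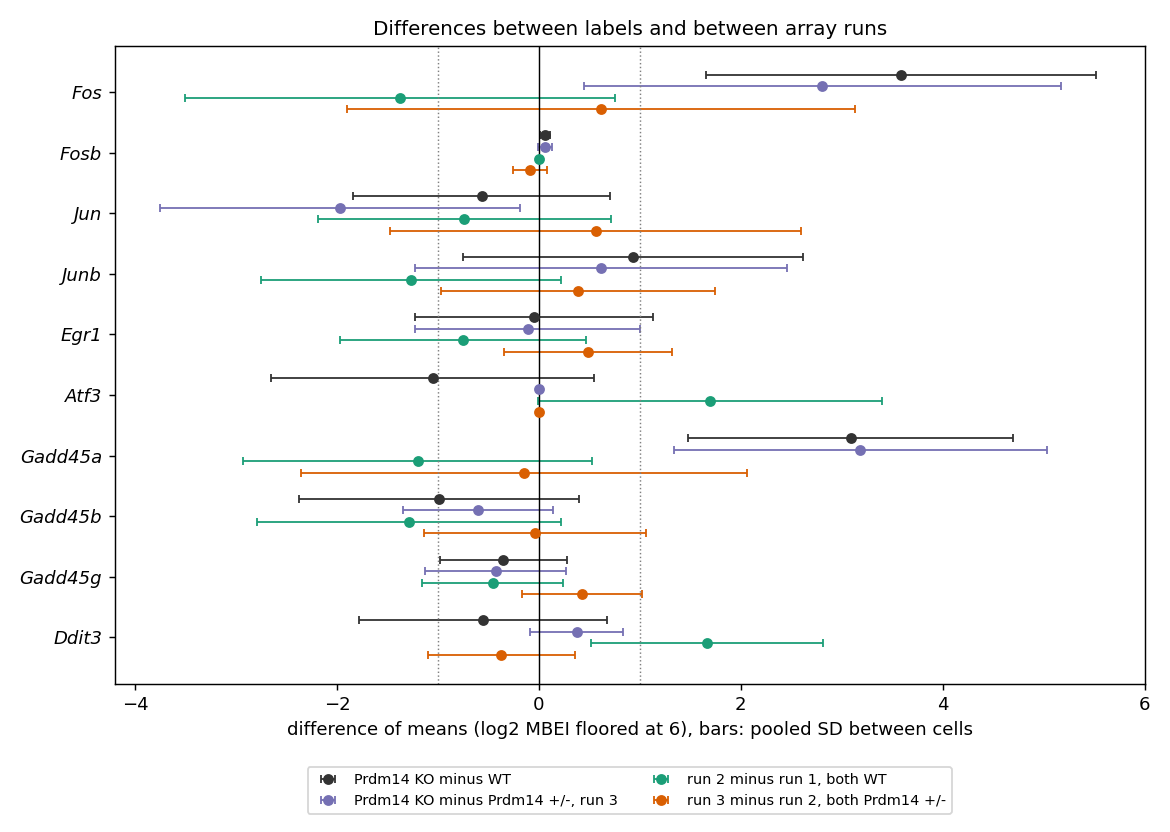
Difference of means of each gene (log2 MBEI floored at 6) between labels (black, and purple inside run 3) and between array runs of 1 label (green, WT; orange, *Prdm14*+/-), with bars of 1 pooled SD between cells. *Fos* and *Gadd45a* lie above 1 in both comparisons of labels, and *Atf3* and *Ddit3* lie above 1 between the 2 runs of cells labelled WT.

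The genes were then summed. The mean level of the 6 immediate early genes was 7.19 ± 0.61 in cells labelled KO, 6.78 ± 0.62 in those labelled *Prdm14*+/- and 6.70 ± 0.61 in those labelled WT. That of the 3 *Gadd45* genes was 7.55 ± 0.31, 6.79 ± 0.87 and 6.97 ± 0.99. A cell had 3.25 ± 1.50, 2.54 ± 1.61 and 2.77 ± 1.88 of the 10 genes on. None of these differences between labels passed the pooled SD between cells (0.48 against 0.61 for the immediate early mean, 0.58 against 0.89 for the *Gadd45* mean and 0.48 against 1.81 for the number on, KO minus WT). Without the fourth cell labelled KO the difference in the number on was -0.10 and that in the immediate early mean 0.23. Among cells labelled WT, the *Gadd45* mean was lower in run 2 than in run 1 (-0.98, pooled SD 0.93), and with the run as a block, which rests on these cells of run 2, the *Gadd45* difference between cells labelled KO and WT was 1.26. Of the variance over the 30 cells, 13.3% of that of the immediate early mean, 17.7% of that of the *Gadd45* mean and 8.9% of that of the number of genes on lay between the 5 sets of run and label. The median over 5599 genes on in 6 to 24 cells was 13.2% (quartiles 8.06% and 20.4%), and 13.8% is what equal sets would give on average. *Fos* (27.5%), *Gadd45a* (29.1%), *Atf3* (31.7%) and *Ddit3* (32.1%) lay above the upper quartile, whereas *Jun* (17.4%), *Gadd45b* (15.4%), *Gadd45g* (13.8%), *Fosb* (10.7%), *Junb* (10.5%) and *Egr1* (7.86%) lay below it. *Atf3*, *Gadd45g* and *Fosb*, on in 4, 5 and 2 cells, were on in fewer cells than the genes that gave the quartiles. For every gene, therefore, most of the variance was between cells of the same run and label.

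Whether these genes were on in the same cells was then counted. *Fos* and *Gadd45a* were on together in 10 cells, which is 90.9% of the 11 *Fos*-positive and 58.8% of the 17 *Gadd45a*-positive cells. The product of their shares is 6.23 cells, or 7.66 when taken inside each set of run and label. The 10 cells were the 4 labelled KO, 3 labelled *Prdm14*+/- and 3 labelled WT. Without the cells labelled KO, *Gadd45a* was on in 6 of 7 *Fos*-positive cells and in 13 of all 26. The exception was a cell labelled *Prdm14*+/- of run 3 with the highest *Fos* value of all, 12.59, and *Jun* at 11.12. The phi coefficient of the pair, a correlation of on/off states, was 0.53, the highest of the 45 pairs. Without the cells labelled KO it was 0.43. The 90th percentile of phi between *Fos* and 5598 other genes was 0.29. The pair was picked as the highest, so this percentile does not measure how unusual the pair is. *Jun* and *Gadd45a* were on together in 1 cell of 8 and 17 (phi -0.54), but with the second *Jun* probe set in 4 of 7 (phi 0.01), so this separation also depends on the probe set.

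Other pairs were looser. *Junb* was on in 9 of the 17 *Gadd45a*-positive, 6 of the 11 *Fos*-positive and 5 of the 7 *Egr1*-positive cells (phi 0.30, 0.23 and 0.35). *Egr1* and *Gadd45g* shared 3 cells (phi 0.39). *Atf3* was on in no cell with *Fos*, *Junb* or the first *Jun* probe set on, but 1 cell labelled WT of run 2 had *Atf3* at 9.05 and the second *Jun* probe set at 9.13. For *Fos*, *Jun* (first probe set) and *Junb* the products of shares with *Atf3* were 1.47, 1.07 and 1.60 cells. Over all 45 pairs the median phi was 0.03, with 26 pairs above 0, 19 below 0 and 8 never on together, and for sparse genes in 30 cells a single weak phi is no finding. *Fos*, *Junb* and *Egr1* were all on in 3 cells, 1 of each label.

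**Figure D4:**
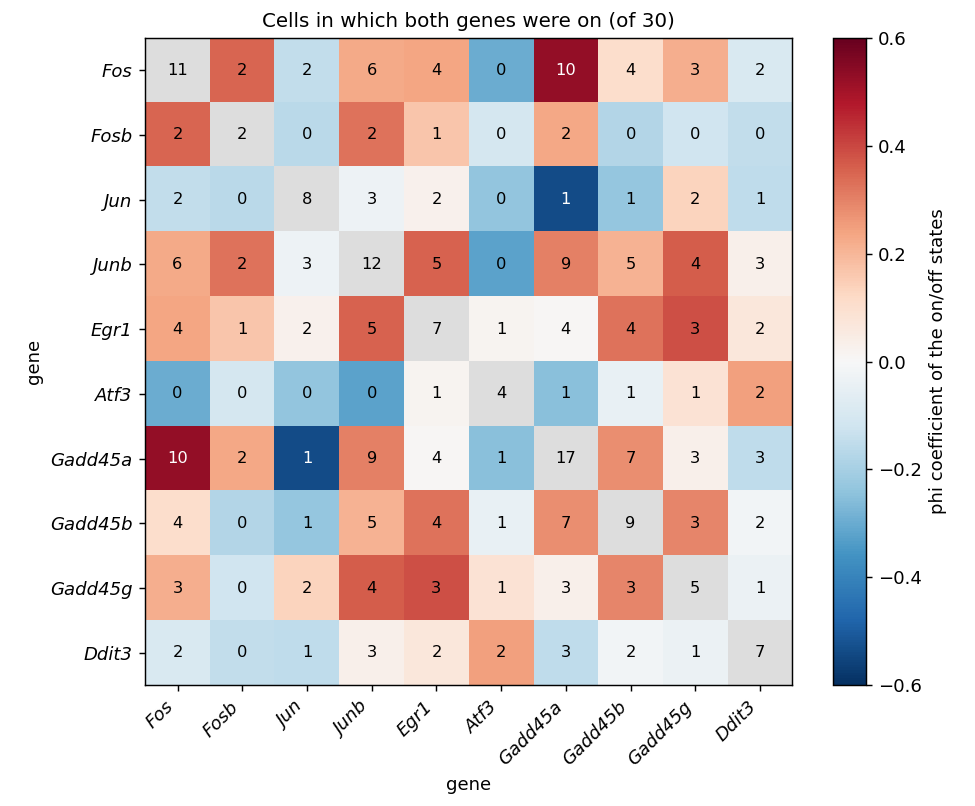
Number of the 30 cells in which both genes of a pair were on (printed; the diagonal gives the cells with that gene on) and the phi coefficient of their on/off states (colour, red above 0 and blue below 0). *Fos* with *Gadd45a* stands out at 10 cells and phi 0.53, and *Jun* with *Gadd45a* at 1 cell and phi -0.54.

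Cells with many of the genes on were found under every label. A cell labelled WT of run 1 had 7 on (*Fos*, *Junb*, *Egr1*, the 3 *Gadd45* genes and *Ddit3*), a cell labelled *Prdm14*+/- of run 3 had 6, and a cell labelled KO and another labelled WT had 5 each. A single cell, labelled WT, had none. No immediate early gene was on in 5 cells (in 1 of them, labelled WT, the second *Jun* probe set read 9.77), and no *Gadd45* gene in 10. The number on moved with the breadth of detection of the array, the share of probe sets above 6, which ran from 21.9% to 31.5% (Pearson r = 0.47 over 30 cells, 0.52 inside sets of run and label, given as a description). This share was 28.6 ± 0.69% in cells labelled KO, 27.2 ± 2.74% in those labelled *Prdm14*+/- and 26.6 ± 2.79% in those labelled WT, and its part in the results was not tested.

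**Figure D5:**
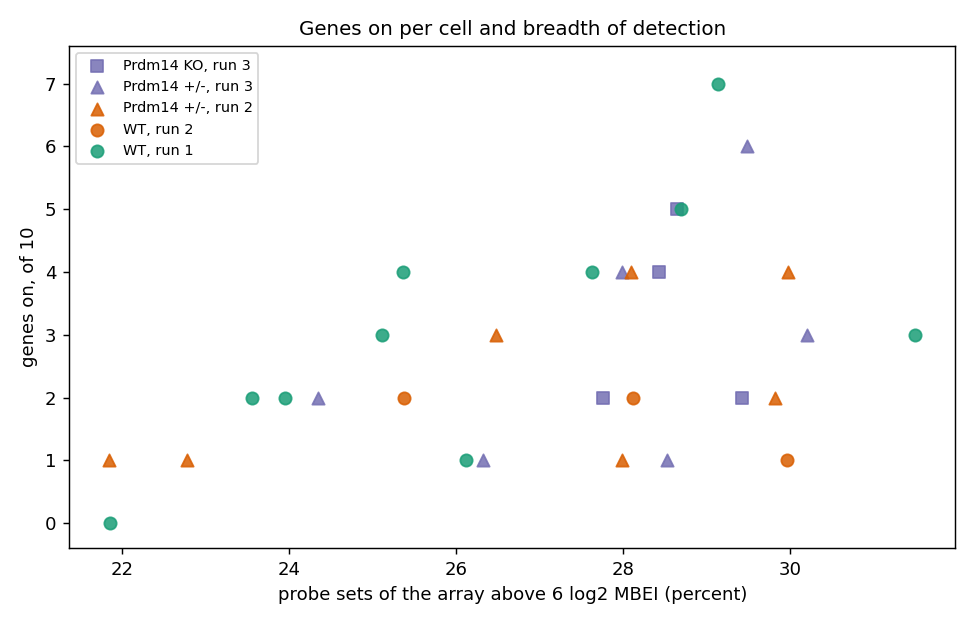
Number of the 10 genes on in each cell (y axis) against the share of all probe sets of its array above 6 (x axis, percent), with shapes for labels and colours for array runs. The cell with none on, labelled WT, lies at 21.9%, and the 4 cells with 5 or more lie above 28%.

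Related genes were read from lists. Of 19 other immediate early genes, 5 were higher by at least 1 in cells labelled KO than in those labelled WT and 1 was lower, against 8.14% and 4.41% of all genes. Inside run 3, 4 were higher and 2 lower (8.76% and 5.88% of all genes). The higher ones included the zinc finger factor *Klf2* (4.17), *Ier5* (3.75), *Ier2* (1.69) and the small GTPase gene *Rhob* (1.60), and the lower one was the RNA-binding protein gene *Zfp36l1* (-1.22). *Klf2* was on in 4 of 4 cells labelled KO, 5 of 13 labelled *Prdm14*+/- and 1 of 13 labelled WT, and inside run 3 its difference was 3.60. *Ier5* was on in 4 of 4, 9 of 13 and 3 of 13 cells (2.44 inside run 3), whereas the difference of *Ier2* inside run 3 was -0.18. *Fosl1* and *Egr3* were on in no cell. The mean of this list correlated with that of the 6 immediate early genes over the 30 cells (r = 0.60, and 0.58 inside sets), as a description of cells that share arrays and amplification. By gene, r was 0.73 for *Fos*, 0.34 for *Fosb*, 0.27 for *Junb* and *Egr1*, 0.02 for *Jun* and -0.23 for *Atf3*. With the *Gadd45* mean it was 0.50, and 0.56 inside sets.

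Of 10 heat shock genes, 0 differed by at least 1 in either direction between cells labelled KO and WT. Over all genes, 8.14% were higher and 4.41% lower. The inducible *Hspa1a* was on in no cell and *Hspa1b* in 2, both labelled WT, while the constitutive chaperone *Hspa8* read 13.26, 13.30 and 13.25 on average in cells labelled KO, *Prdm14*+/- and WT. Of 8 p53 targets, 4 were higher and 0 lower (8.14% and 4.41% of all genes), and inside run 3, 2 were higher and 0 lower (8.76% and 5.88%). They were led by the cell cycle inhibitor *Cdkn1a* (2.25; 1.75 inside run 3) and the p53 ubiquitin ligase *Mdm2* (1.33; 1.48 inside run 3). *Phlda3* was higher by 1.08 in this comparison, but not inside run 3. Of 12 genes of the integrated stress and unfolded protein responses, 2 were higher and 1 lower. Of 7 kinases upstream of or beside GADD45 signalling, *Map2k6* alone was higher (1.50) and 0 lower (8.14% and 4.41% of all genes). Inside run 3, *Map2k6* was higher by 2.06 and *Map2k3* was lower (-1.06), against 8.76% and 5.88% of all genes. Of 7 FGF-MAPK targets, *Spry1* (1.80) and *Spry4* (1.76), both inhibitors of receptor tyrosine kinase signalling, were higher and 0 lower. Over all genes the shares were 8.14% and 4.41%. Inside run 3, 4 of the 7 were higher and 0 lower (8.76% and 5.88% of all genes). *Spry1* was at 2.10, the ERK phosphatase gene *Dusp6* at 2.09, *Etv5* at 1.77 and *Spry4* at 1.53. Over the 30 cells, the mean of this list correlated most with *Gadd45a* among the 10 genes (r = 0.66, and 0.59 inside sets). For *Fosb* and *Junb* r was 0.43 and 0.40. It was 0.12 for *Fos* (-0.11 inside sets), -0.12 for *Egr1*, -0.51 for the first probe set of *Jun* and -0.04 for the immediate early mean.

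Germ cell markers moved with the label too. Of 9, 7 were higher by at least 1 in cells labelled KO than in those labelled WT, among them *Dppa3* (12.55, 10.23 and 9.05 on average in cells labelled KO, *Prdm14*+/- and WT, a difference of 3.51 between KO and WT). The mean of the 9 was 12.11 ± 0.20, 10.41 ± 1.54 and 9.89 ± 0.94 in cells labelled KO, *Prdm14*+/- and WT (range 11.88 to 12.38, 7.49 to 12.01 and 7.94 to 11.80). Over the 30 cells this mean correlated with *Gadd45a* (r = 0.68, and 0.60 inside sets) and less with *Fos* (0.43 and 0.26), and its part in the differences was not tested. Somatic mesoderm markers (0 of 12 higher and 3 lower) had means of 8.65 ± 0.62, 8.97 ± 0.69 and 9.12 ± 0.43 with the labels in the same order. For 11 housekeeping genes they were 11.61 ± 0.31, 11.68 ± 0.30 and 11.69 ± 0.24.

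Among 15671 probe sets ranked over the 30 cells, the pattern of *Gadd45a* was most like that of *Socs2* (Spearman 0.79), *Vsir* (0.74) and *Parp1* (0.73). The pattern of *Fos* was most like that of *Srsf12* (0.74), *Rictor* (0.71) and *Rundc3b* (0.70), and that of *Egr1* like that of *Id2* (0.77), which was on in 6 cells. For *Gadd45b* both listed probe sets of *Mapk8ip2* came first (0.74 and 0.73). The immediate early mean was most like *Cblb* (0.68), and the *Gadd45* mean most like the 2 probe sets of *Ddx1* (0.72 and 0.69). These are the highest of many correlations and are given as descriptions.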

How the data were processed

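Single-cell cDNA was hybridised to Affymetrix GeneChip Mouse Genome 430 2.0 arrays. The authors computed the deposited log2 values as log2 MBEI with dChip 1.3; how arrays were scaled is not given in the methods or labels used here. Per array, 58.9% to 69.6% of values were 0. Array pairs correlated at 0.578 to 0.737, with 0 identical pairs. Values were floored at 6 (64 MBEI), which understates differences from cells at the floor. The probe set with the highest mean stood for a gene. Of 45101 probe sets, 34958 had 1 symbol, 932 several, and 9211 were unnamed here. With 1 cell per sample and no embryo named, no test was run: means, SDs, counts and differences are descriptions. Scripts were tested on simulated data. Named genes were the 10 genes, up to 4 members of a list with a difference of at least 1, and the probe sets most like the genes by Spearman correlation; genes named outside this rule were chosen after their values were seen. The genes, lists and rules were chosen with earlier results of these data known. Some list genes, among them *Hsp90ab1*, *Bax*, *Map2k7* and *Nanos3*, were not analysed here. Alternatives were floors of 4 and 8, no floor, quantile normalization, equal medians, medians over cells, a block for array run, 1 run alone, all probe sets of a gene, and leaving out each cell labelled *Prdm14* KO. Python 3.11.15, NumPy 2.4.6, pandas 2.3.3, SciPy 1.17.1 and matplotlib 3.10.9 were used.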

Additional observations from a re-analysis of the deposited data

Results flagged for a closer look

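In floored values of the 4 cells labelled *Prdm14* KO, *Fosb*, *Egr1* and *Ddit3* each had 1 cell apart from the other 3. The gap took the whole range (ratio 1). *Fosb* was on at 6.23 and *Egr1* at 8.11 in the fourth cell, and *Ddit3* at 7.49 in the second. The other 3 cells were set to the floor of 6. As deposited, *Fosb* read 0.57, 3.80, 5.16 and 6.23, so its gap follows from the floor. *Ddit3* read 4.76 in the first cell before flooring. Such a gap ratio follows whenever 1 of 4 cells is on. Of 9 results examined this way 3 were marked, where chance would mark about 1 in 20 groups of continuous values.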

How the results depend on the processing

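No paired analysis was possible because the labels name no embryo and the cell numbers only name cells. For the immediate early mean, the *Gadd45* mean and the number of genes on, 100 of 102 values under the alternatives stayed within 1 pooled SD between cells of the value given in the report. The other 2 came without a floor, where the immediate early mean in cells labelled *Prdm14* KO exceeded that of cells labelled WT by 1.91 and that of cells labelled *Prdm14*+/- by 1.68. Small differences between labels changed sign all the same. Without the fourth cell labelled KO, that in the number of genes on between cells labelled KO and WT was -0.10 (-0.10 to 0.90 over the 4 cells left out), and with the run as a block that between *Prdm14*+/- and WT was 0.62, against -0.23 without it. For single genes 310 of 340 values stayed within 1 pooled SD, and no difference of at least 1 changed sign under these alternatives. The differences of *Jun* and *Atf3* did not all stay at 1 or more. *Jun* between KO and *Prdm14*+/- (-1.67) was 0 by medians, -0.75 at a floor of 8 and -0.67 over all probe sets. Between *Prdm14*+/- and WT (1.10) it was 0, 0.49 and 0.23. The value over all probe sets is their mean. Alone, the second *Jun* probe set had the opposite sign, 0.34 and -0.63 in these 2 comparisons. *Atf3* (-1.05, KO and *Prdm14*+/- each against WT) was 0 by medians and -0.46 at a floor of 8. The difference of *Fos* between cells labelled KO and WT ran from 2.05 to 8.20, and that of *Gadd45a* from 2.09 to 5.03. Leaving out each cell labelled KO in turn gave 3.33 to 3.94 for *Fos* and 2.85 to 3.53 for *Gadd45a*. That of *Jun* was -0.57, but 1.55 without a floor. *Fos* and *Gadd45a* were on together in 9 to 10 cells under 6 alternatives, and the variance between sets of run and label was 12.4% to 18.2% for the immediate early mean and 17.0% to 25.8% for the *Gadd45* mean; part of these alternatives was chosen after seeing the data. The number of arrays limits the precision, with 4 cells labelled KO in a single run and 3 cells labelled WT linking the runs. A gene off in a cell may be below what the amplification and the array detect.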
